A study of Mus musculus with 6 samples.

Results

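The miR-148 and miR-152 family comprises 3 microRNA (miRNA) precursors in the mouse, Mir148a, Mir148b and Mir152. Its members were chosen by miRNA name as the rows for miR-148a, miR-148b and miR-152, which gave 6 mature arms of the 1907 miRNA names counted. No measured value enters that choice, but the family was put forward with earlier results of this caNrf2 comparison in view, so the fold changes and adjusted p-values below describe the fit and are no independent evidence about the family. Small RNA was sequenced from primary dermal fibroblasts of newborn mice, grown for 6 days and taken at passage 1. The fibroblasts of 3 mice (genotype label Col1a2Cre-caNrf2) combined a Cre recombinase with a constitutively active mutant of Nrf2 (caNrf2), and those of 3 mice (Col1a2Cre-wt, ctrl) carried the Cre alone. Both groups thus carry the Cre, which the Col1a2 promoter drives in fibroblasts, and both have a mixed background of 50% C57Bl/6 and 50% FVB/N. Nrf2 is the transcription factor that switches on antioxidant and detoxification genes.

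A miRNA precursor is a hairpin from whose 2 sides (5p and 3p) mature strands of about 22 bases are cut, and a strand loaded into an Argonaute protein represses mRNAs that pair with its seed, bases 2 to 8. The 3p strands of this family share 1 seed and are known for repressing the DNA methyltransferase Dnmt1. miR-148a is abundant in liver, where it restrains the LDL receptor. Mir148b and Mir152 lie inside the paralogous genes Copz1 and Copz2, which encode zeta subunits of the COPI vesicle coat.

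The mature sequences (RefSeq, GRCm38.p6, the mm10 build that the submitters' notes also name) are shown because the shared seed is what makes the 3p arms a family, and the few bases that differ are what tells their reads apart. Capitals mark the seed.
miR-148a-3p: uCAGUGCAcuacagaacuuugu
miR-148b-3p: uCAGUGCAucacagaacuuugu
miR-152-3p: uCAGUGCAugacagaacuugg
miR-148a-5p: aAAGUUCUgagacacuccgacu
miR-148b-5p: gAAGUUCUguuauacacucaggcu
miR-152-5p: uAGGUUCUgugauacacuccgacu
All 3 of the 3p arms carry CAGUGCA, and no other of the 1679 mature mouse names in the RefSeq table does. Counted from the 5′ end of miR-148a-3p, miR-148b-3p differs by C9U and U10C. miR-152-3p differs from miR-148a-3p by C9U, U10G and U20G and is 1 base shorter (21 against 22 bases). miR-148b-3p and miR-152-3p differ by C10G and U20G. The 5p arms diverge more. miR-148a-5p and miR-148b-5p share the seed AAGUUCU, which no other name in the table has, whereas miR-152-5p has AGGUUCU, alone in the table. Outside the seed miR-148a-5p resembles miR-152-5p instead, with which it shares the run ACACUCCGACU at its 3′ end. How many mismatches were allowed when reads were assigned is not given in the sources used here, so some exchange of reads between the 3p arms is possible. miR-148b-3p and miR-152-3p are the more exposed, since miR-148a-3p has many more reads than either.

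The hairpins are given to place the arms, which are in capitals, the 5p arm first.
Mir148a: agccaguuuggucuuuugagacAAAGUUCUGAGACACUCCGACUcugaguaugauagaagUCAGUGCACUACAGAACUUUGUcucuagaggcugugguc
Mir148b: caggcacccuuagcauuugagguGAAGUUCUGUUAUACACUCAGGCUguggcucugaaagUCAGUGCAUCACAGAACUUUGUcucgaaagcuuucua
Mir152: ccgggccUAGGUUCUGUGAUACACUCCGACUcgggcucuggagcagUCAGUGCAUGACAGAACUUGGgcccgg
Mir148a lies on the minus strand at chr6:51269812-51269910, inside no other GENCODE M21 gene. Its nearest protein-coding gene, 162.8 kb away, is Nfe2l3, which encodes Nrf3, a relative of Nrf2. Mir148b lies on the plus strand at chr15:103285125-103285221, in an intron of all 4 annotated Copz1 transcripts. Mir152 lies on the plus strand at chr11:96850393-96850465, in an intron of 3 of the 5 Copz2 transcripts and in an exon of none.

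The libraries held 10443268 to 28237159 counts, with 1050 to 1200 miRNAs detected in each. The lowest count of any family arm in any library was 1466, where counting error alone is 2.61% of the value. That covers counting error only, since no molecular identifiers are named. All 6 file headers carry the same run and lane name. Nrf2 is not a miRNA, and these counts therefore give no check of the transgene. Levels are CPM (library-scaled counts per 1e6 counts), made comparable between libraries by edgeR's trimmed mean of M-values (TMM). The arms are of nearly the same length, so their CPM needs no length scaling. Preferences in ligation and in PCR copying, which were not measured, can still set levels of different arms apart.

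In caNrf2 fibroblasts both arms of miR-148a and both arms of miR-152 were lower than in ctrl fibroblasts, and neither arm of miR-148b passed the test. Of the 6 arms, 4 fell and 0 rose at an edgeR adjusted p under 0.05, beside 25.7% of the 697 tested miRNAs called in either direction and 11.6% called lower. All 6 arms passed the filter on low counts. The median log2 fold change of the 6 arms was -0.47 and that of all tested miRNAs 0.03. Since the comparison was known when the family was put forward, nothing is read from this share.

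miR-148a-3p, the dominant strand of the family, had 9135, 9459 and 10133 CPM in caNrf2 libraries 1, 2 and 3, against 14326, 14136 and 15936 CPM in ctrl libraries 1, 2 and 3. All caNrf2 libraries lay below all ctrl libraries. CPM ranges that did not overlap, with caNrf2 lower, were found for 17.9% of the tested miRNAs. The group means were 9576 ± 509 CPM in caNrf2 and 14799 ± 989 CPM in ctrl fibroblasts (SD, n = 3 each), and the log2 fold change was -0.63 with an SE of 0.09 (edgeR adjusted p = 6.77e-04). It ranked 16th by level among the tested miRNAs in caNrf2 and 13th in ctrl fibroblasts.

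miR-148a-5p, the minor strand of the same hairpin, had 224, 210 and 222 CPM in the caNrf2 libraries, against 400, 337 and 394 CPM in the ctrl libraries. The groups did not overlap, and the ctrl libraries spread more widely than the caNrf2 ones. The means were 219 ± 7.57 CPM in caNrf2 and 377 ± 34.7 CPM in ctrl fibroblasts (SD, n = 3 each), and on the log2 scale the difference was -0.79 ± 0.09 (SE; edgeR adjusted p = 2.28e-04).

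miR-152-3p, which shares its seed with miR-148a-3p, had 228, 212 and 219 CPM in the caNrf2 libraries, against 302, 305 and 309 CPM in the ctrl libraries. The ctrl values lay close together and above every caNrf2 value. The means were 219 ± 8.27 CPM in caNrf2 and 306 ± 3.47 CPM in ctrl fibroblasts (SD, n = 3 each), -0.48 ± 0.08 on the log2 scale (SE; edgeR adjusted p = 0.00145). miR-152-5p, the other strand of its hairpin, had 209, 234 and 239 CPM in the caNrf2 libraries, against 294, 336 and 304 CPM in the ctrl libraries. These groups did not overlap either, and the log2 fold change was -0.45 ± 0.09 (SE; edgeR adjusted p = 0.00447).

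miR-148b-3p, the second most abundant arm of the family, had 1052, 981 and 1025 CPM in the caNrf2 libraries, against 852, 938 and 997 CPM in the ctrl libraries. The groups overlapped, since the highest ctrl library lay above the lowest caNrf2 library. Its log2 fold change was 0.13 ± 0.08 (SE; edgeR adjusted p = 0.249). miR-148b-5p had 150, 176 and 165 CPM in the caNrf2 libraries, against 141, 145 and 149 CPM in the ctrl libraries. Here every caNrf2 library lay above every ctrl library, the closest pair by less than 1 CPM, as in 23.7% of the tested miRNAs. The log2 fold change of 0.18 ± 0.10 did not pass the threshold (SE; edgeR adjusted p = 0.215). A p above the threshold does not show that the miR-148b arms were unchanged.

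**Figure D1:**
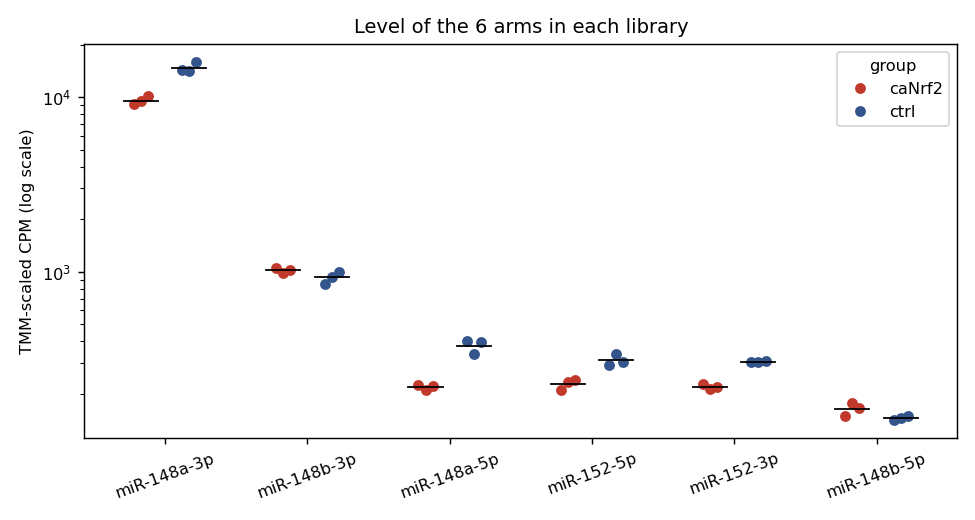
TMM-scaled CPM (vertical axis, log scale) of the 6 arms in each of the 3 caNrf2 and 3 ctrl libraries, 1 point per library, with a bar at the group mean. The caNrf2 points of the miR-148a and miR-152 arms lie below all ctrl points, while those of miR-148b-3p overlap with the ctrl points.

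**Figure D2:**
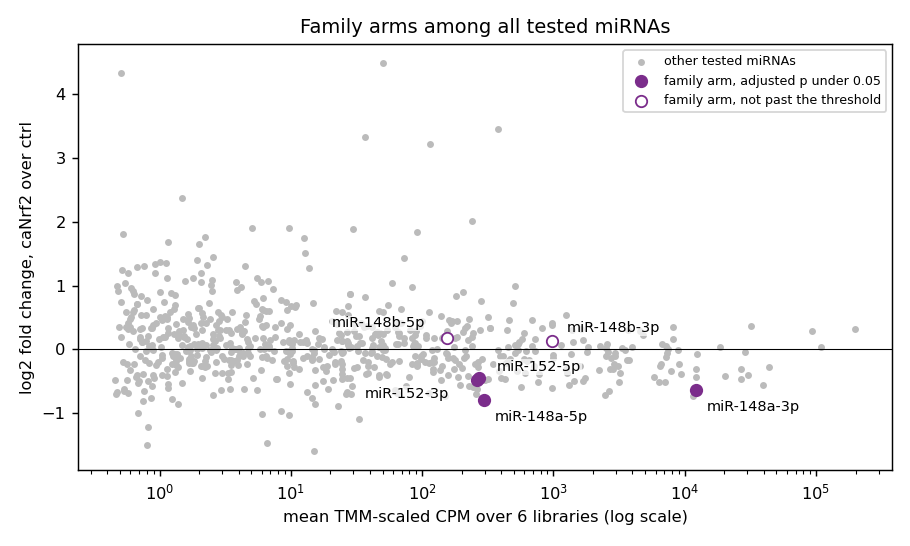
Log2 fold change of caNrf2 over ctrl fibroblasts (vertical axis) against the mean TMM-scaled CPM over the 6 libraries (horizontal axis, log scale) for the 697 tested miRNAs, with the family arms in purple and their SE as bars, which can be smaller than the symbols. The 4 filled arms, at -0.79 to -0.45, had an adjusted p under 0.05, and the open miR-148b arms lie just above 0.

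The order of levels within the family differed a little between the groups. In caNrf2 fibroblasts miR-148a-3p stood first and miR-148b-3p second. miR-152-5p (209 to 239 CPM), miR-152-3p (212 to 228 CPM) and miR-148a-5p (210 to 224 CPM) overlapped there and could not be ordered beyond their spread, and miR-148b-5p was last (150 to 176 CPM). In ctrl fibroblasts the first 2 places and the last were the same. miR-148a-5p (337 to 400 CPM) came next in the ctrl libraries, its lowest value under 1 CPM above the highest of miR-152-5p. The ctrl values of the miR-152 arms overlapped each other (294 to 336 CPM for 5p and 302 to 309 CPM for 3p).

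The hairpins differed widely in how their reads divided between the strands. Mir148a gave 43.8 ± 2.64 reads of the 3p arm for each read of the 5p arm in caNrf2 and 39.4 ± 3.19 in ctrl fibroblasts (SD, n = 3 each). Mir148b gave 6.27 ± 0.73 and 6.40 ± 0.34 in caNrf2 and ctrl fibroblasts, with 3p again the major strand. In Mir152 the strands were nearly equal, at 0.97 ± 0.10 reads of 3p per read of 5p in caNrf2 and 0.98 ± 0.07 in ctrl fibroblasts.

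A ratio of 2 counts within a library does not depend on the scaling between libraries. The log2 ratio of 5p over 3p differed between caNrf2 and ctrl fibroblasts by -0.15 ± 0.09 for miR-148a, 0.04 ± 0.11 for miR-148b and 0.02 ± 0.10 for miR-152 (SE). The libraries of the groups overlapped in all 3 ratios. Two-sided exact permutation tests over 20 assignments gave p = 0.2, 0.8 and 0.9 (n = 3 each), and 0.6, 0.9 and 0.9 adjusted over these 3 ratios. The smallest p that 3 against 3 libraries allow is 0.1, so no ratio could have passed 0.05. The sign of the miR-148b ratio turned without caNrf2 library 2 (-0.05), and that of the miR-152 ratio without caNrf2 library 2 (-0.02), caNrf2 library 3 (-0.01) or ctrl library 1 (-0.01).

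The same arm of different precursors was compared in the same way, in 6 ratios added after the arms' values had been seen. For each read of miR-148b-3p there were 8.68, 9.64 and 9.89 reads of miR-148a-3p in the caNrf2 libraries, against 16.8, 15.1 and 15.98 in the ctrl libraries. The groups did not overlap and differed by -0.76 ± 0.07 on the log2 scale (SE; two-sided exact permutation p = 0.1, the smallest allowed, n = 3 each). The 5p ratio of these precursors was 1.495, 1.19 and 1.35 in the caNrf2 libraries, against 2.83, 2.33 and 2.64 in the ctrl libraries, a difference of -0.95 ± 0.13 (exact permutation p = 0.1).

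miR-152 also stood lower relative to miR-148b. There were 0.217, 0.216 and 0.213 reads of miR-152-3p per read of miR-148b-3p in the caNrf2 libraries, against 0.355, 0.325 and 0.310 in the ctrl libraries. The difference was -0.62 ± 0.06 for 3p and -0.63 ± 0.07 for 5p on the log2 scale (SE; exact permutation p = 0.1 for both). In each of these 4 ratios all caNrf2 libraries lay below all ctrl libraries, and p adjusted over the 6 ratios was 0.15. These ratios share the miR-148b counts and restate the differences of the arms given above. Their separation and p are therefore no further evidence. The share of other miRNA pairs that separate in this way was not computed. Between miR-148a and miR-152 the groups overlapped in both arms. The log2 ratio of miR-148a over miR-152 differed by -0.15 ± 0.08 for 3p and -0.33 ± 0.16 for 5p (SE; exact permutation p = 0.2 for both, 0.2 adjusted).

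**Figure D3:**
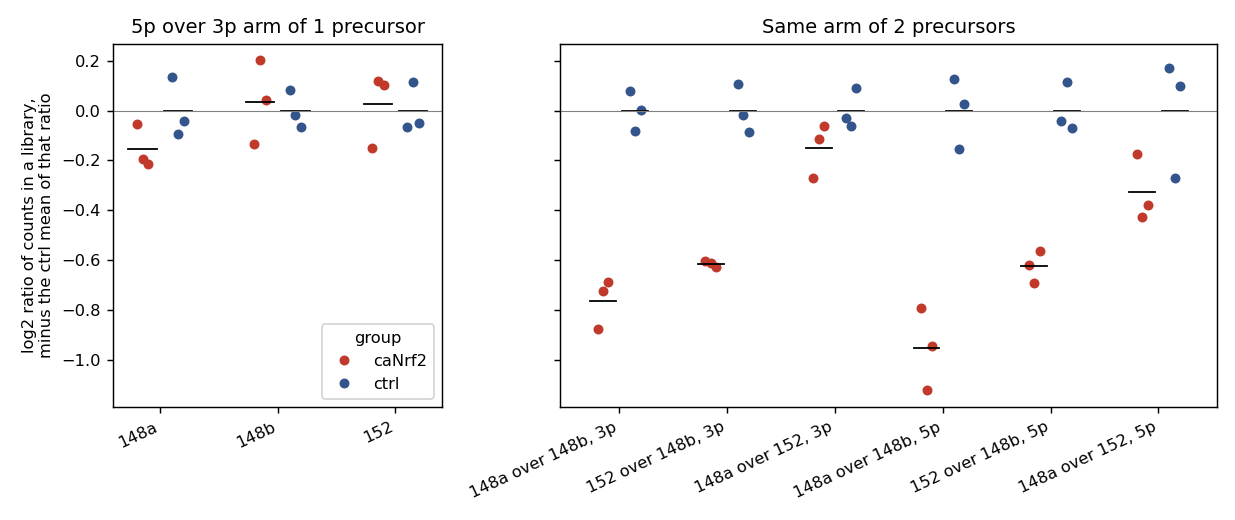
Log2 ratio of 2 counts within each library, minus the ctrl mean of that ratio (vertical axis), with 1 point per library and a bar at the group mean; the left panel has 5p over 3p of each precursor and the right panel the same arm of different precursors. The caNrf2 points lie clear of the ctrl points only in the 4 ratios over miR-148b, with differences of -0.95 to -0.62.

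Because the 3p arms share a seed, their levels were summed. The sum describes the reads with that seed and is no measure of molecules in the cells. The sum was 10814 ± 501 CPM in caNrf2 and 16034 ± 1048 CPM in ctrl fibroblasts (SD, n = 3 each), or 1.09% ± 0.03 of all counts in caNrf2 and 1.59% ± 0.09 in ctrl fibroblasts. The difference of the sums was nearly all miR-148a-3p, whose mean differed by -5224 CPM between caNrf2 and ctrl fibroblasts. The means of miR-152-3p and miR-148b-3p differed by -86.2 and 90.4 CPM. miR-148a-3p made up 88.5% ± 0.72 of it in caNrf2 and 92.3% ± 0.33 in ctrl fibroblasts, and miR-148b-3p made up 9.44% ± 0.58 in caNrf2 and 5.80% ± 0.30 in ctrl fibroblasts. The share of miR-152-3p was 2.03% ± 0.14 in caNrf2 and 1.91% ± 0.10 in ctrl fibroblasts. These shares also depend on each other, since they add up to the whole.

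The 5p seed AAGUUCU has a much smaller pool and a more even one. miR-148a-5p and miR-148b-5p together had 382 ± 7.46 CPM in caNrf2 and 522 ± 34.7 CPM in ctrl fibroblasts (SD, n = 3 each). miR-148b-5p made up 42.8% ± 2.79 of this pool in caNrf2 and 27.9% ± 2.01 in ctrl fibroblasts.

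**Figure D4:**
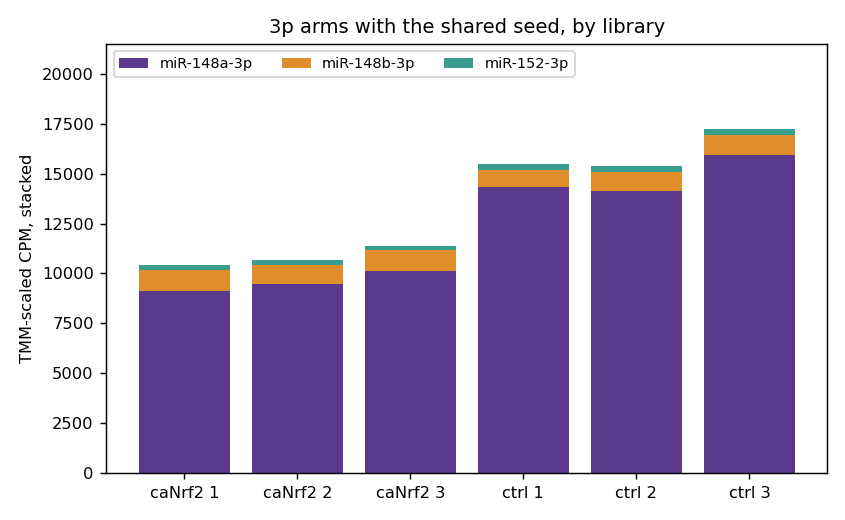
Stacked TMM-scaled CPM (vertical axis) of the 3p arms with the shared seed, 1 bar per library, caNrf2 libraries left and ctrl libraries right. The bars average 10814 CPM in caNrf2 and 16034 CPM in ctrl fibroblasts, and miR-148a-3p makes up most of every bar.

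Copz1 and Copz2 messenger RNA was not measured here. The window from 250 bases before to 50 bases after each host gene's start (RefSeq, GRCm38.p6) was searched on both strands for TGACNNNGC, the core of the antioxidant response element that Nrf2 binds. This motif was chosen after the arms' values had been seen. Mir148a lies inside no host gene, and no window was searched for it. The Copz1 window holds it at 2 places and the Copz2 window at 1, on the opposite strand, shown with 10 bases on either side and the motif in capitals.
Copz1, chr15:103272770-103272798, plus strand: gtgaagcgagTGACTACGCtgactggtca
Copz1, chr15:103272869-103272897, plus strand: caatcagcggTGACGTCGCttgtgcgact
Copz2, chr11:96849858-96849886, plus strand: gggcggggcgGCGCTGTCAgtgcaggcag
Of all 32817 windows in the table, 12.4% hold the motif on either strand. A match is a description of these letters and shows no binding.

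Related miRNAs were counted in lists made with earlier results of these data known. Of 11 tested miRNAs of the Hox clusters, 4 fell and 0 rose, beside 11.6% lower and 14.1% higher over all tested miRNAs, with a median log2 fold change of -0.45. Those that fell were both arms of miR-10a (-0.73 ± 0.17 for 5p and -0.58 ± 0.15 for 3p; SE; edgeR adjusted p = 0.00941 and 0.0148) and both arms of miR-10b (-0.56 ± 0.10 for 5p and -0.66 ± 0.16 for 3p; edgeR adjusted p = 0.00245 and 0.0108).

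Of 9 other miRNAs reported to target DNA methyltransferases, 2 rose and 1 fell, beside 25.7% called in either direction over all tested miRNAs, with a median log2 fold change of 0.28. miR-29c-3p and miR-29a-3p, repressors of Dnmt3a and Dnmt3b, rose by 0.97 ± 0.11 and 0.36 ± 0.08 (SE; edgeR adjusted p = 2.28e-04 and 0.0106), the second no longer past the threshold without caNrf2 library 2 (adjusted p = 0.0577) or 3 (0.0516). miR-140-5p, a cartilage miRNA, fell by 0.68 on the log2 scale (edgeR adjusted p = 0.00145). miR-143-3p stood at 0.28 ± 0.09 on the same scale (SE; edgeR adjusted p = 0.0512) and passed the threshold in 6 of 13 alternatives.

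In the miR-130 and miR-301 family the 5 of 6 listed members found in the RefSeq table have the seed AGUGCAA, which overlaps with CAGUGCA when shifted by 1 base. Of the 6 members 4 had enough counts, and of these 3 fell, beside 11.6% lower over all tested miRNAs, with a median log2 fold change of -0.40. miR-130b-3p changed by -0.62 ± 0.12 and miR-130a-3p by -0.33 ± 0.07 (SE; edgeR adjusted p = 0.00457 and 0.00892). miR-301b-3p, at -0.47 ± 0.15 (edgeR adjusted p = 0.0362), was not past the threshold without caNrf2 library 1 (adjusted p = 0.0767) or 3 (0.155), without ctrl library 1 (0.0605) or 3 (0.136), or with a replicate block (0.0558). miR-301a-3p had -0.07 ± 0.12 (edgeR adjusted p = 0.686), and 0.01 without caNrf2 library 1.

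The miRNAs whose log2 CPM followed each arm most closely over the 6 libraries, among 365 others with a mean of at least 10 CPM, are given by Pearson's r as a description. All such values share the libraries, their scaling and the difference between the groups. For miR-148a-3p they were miR-411-5p (r = 0.995), miR-199b-5p (0.992) and miR-676-5p (0.989), and for miR-148a-5p miR-30c-5p (0.999), miR-376c-3p (0.995) and miR-374b-5p (0.994). For miR-152-3p they were miR-376b-3p (r = 0.995), miR-676-3p (0.989) and miR-5114 (0.989), and for miR-152-5p miR-30e-3p (0.978), miR-300-3p (0.977) and miR-10a-5p (0.973). All 12 of these were lower in caNrf2 fibroblasts at an edgeR adjusted p under 0.05, beside 11.6% called lower over all tested miRNAs. They were picked for likeness to arms called lower in the same libraries, so their direction was largely fixed by that choice. miR-300-3p (edgeR adjusted p = 0.0155) was no longer past the threshold without caNrf2 library 3 (0.0513) or ctrl library 3 (0.0602). miR-30e-3p (edgeR adjusted p = 0.0275) was not without caNrf2 library 1 (0.0558), 2 (0.0525) or 3 (0.0755), without ctrl library 2 (0.0593) or 3 (0.105), or with no filter (0.0952). The miR-148b arms had other neighbours, picked in the same way. They were miR-3057-5p (r = 0.987), miR-126a-3p (0.927) and miR-7068-3p (0.922) for miR-148b-3p, and let-7f-2-3p (0.980), miR-345-3p (0.961) and miR-338-3p (0.943) for miR-148b-5p. Of these 6, miR-338-3p alone passed the threshold, as higher (edgeR adjusted p = 0.0204), and it did not pass without caNrf2 library 2 (0.0818) or 3 (0.0779) or ctrl library 1 (0.0644).

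Some marker lists for other cells differed between the groups as well. Over all 697 tested miRNAs 14.1% were called higher and 11.6% lower. Of 7 fibroblast markers 1 rose and 2 fell, and their median stood at 0.03 on the log2 scale. The markers named here were chosen after their values were seen. The one that rose was miR-22-3p, by 0.31 ± 0.10 on the log2 scale (SE; edgeR adjusted p = 0.0349). Its call was lost with RLE size factors (adjusted p = 0.0703, edgeR) and without any single library other than ctrl replicate 1 (0.0675 to 0.115). Those that fell were miR-199a-5p, by 0.51 ± 0.09 on the log2 scale (SE; edgeR adjusted p = 0.00269), and miR-199a-3p, by 0.41 ± 0.10 (0.0140). The call of miR-199a-3p was lost without caNrf2 replicate 1 (edgeR adjusted p = 0.0608) or ctrl replicate 3 (0.0611). Their summed level, made up mostly of miR-22-3p, miR-143-3p and miR-21a-5p, was 449226 to 487819 CPM in caNrf2 and 412212 to 420095 CPM in ctrl libraries. Of 4 leukocyte markers 3 rose, beside the 14.1% over all tested miRNAs, with sums of 153 to 229 CPM in caNrf2 and 34.0 to 66.2 CPM in ctrl libraries. Those 3 were miR-223-3p and both arms of the miR-142a hairpin. The other, miR-150-5p, stood at -0.104 ± 0.166 on the log2 scale (SE; edgeR adjusted p = 0.693). The 4 tested of 5 muscle markers all rose, beside the same 14.1%, with sums of 558 to 737 CPM in caNrf2 and 343 to 421 CPM in ctrl libraries. Nearly all of the muscle sum was miR-133a-3p. The untested marker, miR-1a-3p, had only 1, 9 and 6 counts in the caNrf2 libraries and 5, 2 and 2 in the ctrl libraries. In the erythroid list 1 of 3 rose, beside the same 14.1%, with sums of 495 to 589 CPM in caNrf2 and 352 to 410 CPM in ctrl libraries. Nearly all of that sum was miR-486a-5p, the member that rose, by 0.467 on the log2 scale (edgeR adjusted p = 0.00469). miR-451a stood at 0.477 ± 0.203 (SE; edgeR adjusted p = 0.114) and miR-144-3p at -0.998 ± 0.389 (SE; edgeR adjusted p = 0.0873). miR-144-3p had few counts, with 4, 15 and 13 in the caNrf2 libraries and 8, 11 and 27 in the ctrl libraries.

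Of 7 epithelial markers 0 were called, with overlapping sums of 1600 to 2121 CPM in caNrf2 and 1035 to 1865 CPM in ctrl libraries. Their log2 fold changes were all positive, from 0.18 to 0.54, with a median of 0.36 beside 0.03 over all tested miRNAs. The largest was that of miR-205-5p (edgeR adjusted p = 0.059). Of 2 endothelial markers 0 were called, with sums of 147 to 170 CPM in caNrf2 and 116 to 165 CPM in ctrl libraries. Their median log2 fold change was 0.20. miR-122-5p, the defining miRNA of hepatocytes, in which miR-148a is abundant, had 1, 4 and 6 counts in the caNrf2 libraries and 1, 0 and 4 in the ctrl libraries, too few to be tested. The part of these cell types in the levels of the miR-148 and miR-152 arms was not tested. In such bulk libraries fewer cells of a type and less of a miRNA per cell cannot be told apart.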

How the data were processed

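Small RNA libraries came from 3 caNrf2 and 3 ctrl fibroblast cultures, each from a different mouse per the series design. The deposited files hold raw counts of reads per mature miRNA, with no normalization recorded. CASAVA 1.8, cutadapt, Bowtie, featureCounts, edgeR and the mm10 build appear in the submitters' processing notes, with no order or settings, so the treatment of reads matching several arms is not given in the sources used here.

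Sample titles gave the groups and replicate numbers. miRNAs passing filterByExpr (minimum count 10) were scaled by TMM (factors 0.984 to 1.04) and tested with edgeR 4.0.16 in R 4.3.3 (quasi-likelihood test, group as the only term). Benjamini-Hochberg adjustment ran over all 697 tested miRNAs, with a threshold of 0.05. The SE of a log2 fold change is its size over the square root of F. Ratios within a library used counts plus 0.5, with SEs from the spread of libraries, and two-sided exact permutation tests. Likeness used log2 CPM with a prior count of 2. No library was a copy of another of its group (chi-square per degree of freedom at least 101). All 6 arms matched a RefSeq sequence. The scripts were checked on simulated counts.

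The members, lists and tests were chosen with earlier results of these data known. Named were all 6 arms, the up to 4 lowest p of each list of related miRNAs, and the 3 miRNAs most like each arm. Outside this rule, some cell type markers were also named, chosen after their values were seen. Alternatives were RLE size factors, library totals, leaving out the 5 most abundant miRNAs, testing without a filter or from a mean of 10 CPM up, DESeq2 1.42.0, limma-voom (limma 3.58.1), a replicate block, leaving out each library and other pseudocounts. One positional result is not reported here.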

Additional observations from a re-analysis of the deposited data

How the results depend on the processing

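All 6 arms kept their direction and their side of the threshold in all 14 alternatives, with 4 arms lower and 0 higher in each. The log2 fold changes ranged from -0.68 to -0.57 for miR-148a-3p, -0.87 to -0.75 for miR-148a-5p, -0.52 to -0.46 for miR-152-3p, -0.50 to -0.40 for miR-152-5p, 0.07 to 0.19 for miR-148b-3p and 0.10 to 0.23 for miR-148b-5p. The adjusted p of the 4 lower arms stayed at or below 0.0190, and that of the miR-148b arms at or above 0.109. The median log2 fold change of all miRNAs moved between -0.01 and 0.08. Over all miRNAs 98 were called higher and 81 lower, and at a mean of at least 10 CPM, where fewer are tested, 60 were higher and 71 lower. Leaving out 1 library gave 71 to 97 higher and 55 to 82 lower.

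The deviations of same-numbered libraries from their group means had correlations of 0.178, 0.114 and -0.218. So few values cannot settle whether the numbers pair the samples. With a replicate block 102 miRNAs were higher and 87 lower, and miR-148a-3p had a log2 fold change of -0.63, with the same calls for all 6 arms. Without 1 library, the log2 difference of 5p over 3p ranged from -0.205 to -0.0872 for miR-148a, -0.0469 to 0.121 for miR-148b and -0.0226 to 0.112 for miR-152, and the log2 fold change of miR-301a-3p from -0.20 to 0.00914. The cause of these turns in sign was not tested. The 4 ratios over miR-148b stayed between -1.03 and -0.56 in their 9 alternatives each. With 3 libraries a group the exact tests cannot pass 0.05, which limits what the ratios can show.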
